A study of Homo sapiens with 7 samples.

Results

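Lines of the human fibrosarcoma HT1080 that expressed a construct holding the extracellular part (ectodomain) of PTK7 were compared with lines that carried no such construct. The ectodomain side held 3 lines, PTK7, Chz and sPTK7, and the other side 3 lines, shPTK7, cPTK7/622-1070 and cPTK7/726-1070, so 6 of the 7 arrays of the study entered the comparison. PTK7 cells carried the full-length protein with a FLAG tag, which the blots also read in Chz and sPTK7 cells. Chz cells carried the chuzhoi mutant, a full-length form with an extra site for the membrane protease MT1-MMP, and sPTK7 cells carried the soluble N-terminal fragment alone. In shPTK7 cells the endogenous gene was silenced by shRNA from a retroviral RFP vector with puromycin selection, and 3 silenced clones were pooled. The cPTK7/622-1070 line and the cPTK7/726-1070 line carried C-terminal fragments on top of the endogenous protein. These start at residues 622 and 726 and end at residue 1070. The 622-1070 form was given a signal peptide for delivery to the plasma membrane. It begins at the MT1-MMP cut within the ectodomain and so keeps the part of the ectodomain next to the membrane. Its line is still counted here as without ectodomain. On the paper's V5 blot this form was partly turned into a species similar to the 726-1070 form. The paper describes the 726-1070 form as the product of gamma-secretase, a protease, which can be degraded or moved to the nucleus. Both C-terminal fragments had a V5-HIS tag instead. The FLAG tag was thus on the ectodomain side only, and its effect cannot be told apart from that of the ectodomain. The remaining array came from HT1080 cells, labelled as a scrambled control and called parental in the methods, and belonged to neither side.

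PTK7 is a catalytically inert receptor tyrosine kinase. It has a row of immunoglobulin-like domains outside the cell, a membrane span and a pseudokinase domain inside, and it acts in canonical Wnt signaling and in planar cell polarity, the pathway that orients cells within a sheet. MT1-MMP and ADAM proteases cut it outside the membrane and release the soluble ectodomain, after which gamma-secretase cuts the stump within the membrane. HT1080 cells make much MT1-MMP and little PTK7 of their own. The split of the lines does not follow the cytoplasmic part of the protein, since PTK7 and Chz cells also carried it.

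All lines were grown for 72 h to a subconfluent culture, and 750 ng of labeled cRNA per line was hybridized for 18 h to 1 HumanHT-12 v4 BeadChip with 1 array per line. Between 19045 and 20515 probes per array were detected, meaning brighter than the negative controls at a detection p under 0.05. The lines of a side differ from each other in their constructs and clonal history and are not replicates of a condition. With 1 array each, the spread between cultures of the same line is unknown. Of 12 mesenchymal marker genes with a probe, 8 to 10 were detected per line, among them VIM, CD44 and LGALS1 in every line, whereas 1 or 2 of 12 epithelial markers were detected. Leukocyte and blood markers were detected for 3 to 7 of 11 genes per line and endothelial markers for 2 or 3 of 8, and no gene of these marker lists was separated.

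A gene entered the comparison when it was detected on at least 3 of the 6 arrays, which held for 11290 of 20038 genes with a probe. A gene was called separated when its 3 signals on one side all lay above the 3 on the other, after signals below an array's lowest detected signal had been raised to that floor, and when all 3 lines of the higher side detected it. Signals are given as log2 values, so a difference of 1 is 2-fold, and a fold is a lower bound wherever a line of the dimmer side did not detect the gene. The direction is always that of the ectodomain lines.

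Of the 11290 genes, 685 were separated with the ectodomain lines higher (6.07%) and 821 with the ectodomain lines lower (7.27%). Most of these differences were small, with a median of 0.54 for the higher genes and -0.45 for the lower ones. At least 2-fold by the means of the sides were 94 higher genes (0.833%) and 100 lower genes (0.886%). The limma test, which sets the difference between the sides against the spread between the lines within them, called 16 genes higher (0.142%) and 20 genes lower (0.177%) at a Benjamini-Hochberg adjusted p under 0.05 over all genes considered. All 36 were separated, and 33 were separated by at least 2-fold. Called genes undetected on a whole side passed the filter only through the other side, and the test used their signals below detection. Among genes detected on all 6 arrays, 11 of the 36 were still called. Of 43 genes past 2-fold with several probes considered, all probes were separated the same way in 25. When each line was left out in turn, between 15 and 31 of the 36 were still called, and 13 were called whichever line was missing: ALG1L1P, AMER1, ASB9, DCLK1, GSTT1, INPP1, KCNK2, NAP1L5, SOX18, SOX7, TRIML2, ZNF239 and ZNF280D. Only 15 remained without shPTK7 cells, 16 without cPTK7/622-1070 cells, 16 without cPTK7/726-1070 cells, 18 without sPTK7 cells and 21 without Chz cells. Of the 13 genes, ALG1L1P, INPP1, TRIML2 and ZNF280D were detected on all 6 arrays, and the others were undetected in part or all of their dimmer side. The 13 were drawn from genes called on these same arrays, so leaving out a line is not an independent check.

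**Figure D1:**
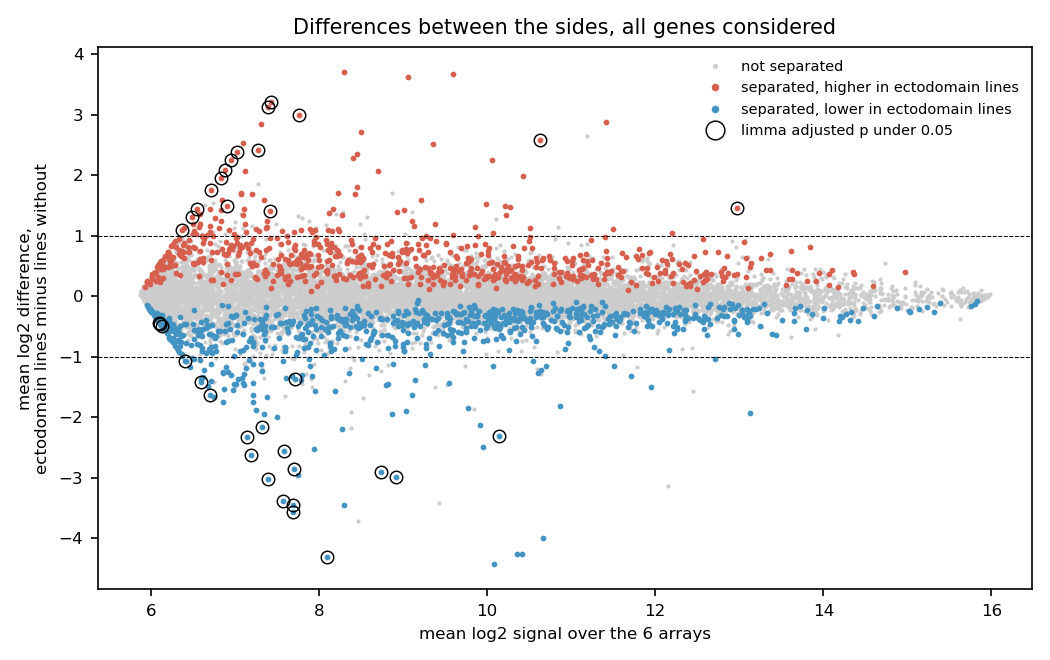
Mean log2 signal of each gene over the 6 arrays (horizontal axis) and the mean log2 difference of the ectodomain lines minus the lines without ectodomain construct (vertical axis). Red and blue points are the 685 higher and 821 lower separated genes, circles the 36 genes called by limma, and dashed lines mark a 2-fold difference.

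PTK7 itself did not pass the detection filter. Its brighter probe gave log2 signals of 6.81 in PTK7 cells and 7.10 in Chz cells and was undetected in sPTK7 cells, against no detection in the shPTK7, cPTK7/622-1070 and cPTK7/726-1070 lines, while HT1080 cells stood at 6.71. The dimmer probe was detected in Chz cells at 6.11 and in HT1080 cells at 5.84 and on no other array. All these signals lie near the floor of 5.75 to 5.93, so the array showed neither construct nor silencing as a large change. The sources used here do not say which part of the transcript each probe reads, and a probe outside the transfected fragment could not report it.

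The study probed the proteins of CDH11, SPP1, IL1B, PDPN and MAGEC1 on blots, and of these genes only IL1B was separated between the sides. IL1B, a pro-inflammatory cytokine, had signals of 10.49, 11.61 and 10.52 in PTK7, Chz and sPTK7 cells, against no detection in shPTK7 cells, 7.33 in cPTK7/622-1070 cells and 8.68 in cPTK7/726-1070 cells. Each ectodomain line was brighter than each line without ectodomain, by a gap of 1.81, and the means differed by at least 12.3-fold. The lines without ectodomain spread widely, and limma did not call the gene (difference 3.79 ± 0.78 SE, adjusted p = 0.147). CDH11, a mesenchymal cadherin, was undetected in PTK7 and sPTK7 cells and stood at 7.99 in Chz cells, against 7.99 in shPTK7, 11.05 in cPTK7/622-1070 and 11.92 in cPTK7/726-1070 cells. The Chz and shPTK7 values met, so CDH11 was high in the 2 lines with a C-terminal fragment alone and did not divide the sides. PDPN, a mucin-type membrane glycoprotein, was high in sPTK7 cells alone at 12.05 by its brighter probe and undetected on all arrays by the other, and MAGEC1, a cancer/testis antigen, in PTK7 cells alone at 11.54. SPP1, the matrix protein osteopontin, ran between 8.22 and 8.50 in the ectodomain lines and between 8.26 and 10.48 in the lines without.

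Among the genes that were higher in the ectodomain lines, AMER1 and NAP1L5 were called with no detection on the whole other side. AMER1, a scaffold of the complex that degrades beta-catenin, had signals of 9.15, 9.02 and 8.70 in PTK7, Chz and sPTK7 cells and was undetected in shPTK7, cPTK7/622-1070, cPTK7/726-1070 and HT1080 cells. It rose at least 8.72-fold (limma adjusted p = 0.000788). NAP1L5, an imprinted gene of the nucleosome assembly protein family, had signals of 9.51, 9.27 and 8.32 in PTK7, Chz and sPTK7 cells and was likewise undetected on the other 4 arrays, a rise of at least 9.19-fold (limma adjusted p = 0.00292). In both genes the transfected ectodomain lines carried a transcript that the array did not see in any other line of the study. CAMK1, a calcium-dependent kinase, rose at least 5.21-fold, ZNF518B, a zinc finger gene, at least 4.76-fold, and KCNK2, a potassium channel, at least 2.47-fold, again with no detection elsewhere (limma adjusted p = 0.0128, 0.018 and 0.00539). GALNT18, which starts O-linked glycosylation, rose at least 4.26-fold (limma adjusted p = 0.0175), and HT1080 cells stood just above the floor at 5.99.

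TRIML2, a relative of the tripartite motif ubiquitin ligases, was detected on every array. It had signals of 11.61, 11.90 and 12.24 in PTK7, Chz and sPTK7 cells, against 9.17, 9.54 and 9.30 in the shPTK7, cPTK7/622-1070 and cPTK7/726-1070 lines and 8.51 in HT1080 cells. The gap between the sides was 2.07 and the rise 5.97-fold (limma adjusted p = 0.00347). ZNF280D, a zinc finger gene on chromosome 15, was called in the same direction at 5.35-fold with all 3 of its probes separated (limma adjusted p = 0.00448). SLC16A9, of the monocarboxylate transporter family, rose at least 7.93-fold and DLL1, a Notch ligand, at least 3.37-fold (limma adjusted p = 0.018 for each), and in both HT1080 cells lay between the sides. The other called genes in this direction were COL18A1, DBNDD2, CKB, NFKB2, RELB and NMB.

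Several of the largest higher genes varied too much within a side for the test. GSPT2, a translation termination factor, had 10.03, 10.05 and 10.36 in PTK7, Chz and sPTK7 cells, against no detection in shPTK7 and cPTK7/726-1070 cells and 7.66 in cPTK7/622-1070 cells, a difference of at least 13.1-fold (limma adjusted p = 0.0566). IL24, a cytokine of the IL10 family, had 13.15, 9.22 and 11.92 in PTK7, Chz and sPTK7 cells, against 7.33, 7.64 and 8.32 in the shPTK7, cPTK7/622-1070 and cPTK7/726-1070 lines (12.7-fold, limma adjusted p = 0.219). The spread of IL24 was largest within the ectodomain lines, with PTK7 cells far above Chz cells. SCG5, a chaperone of the secretory pathway, ACTL8, an actin-like cancer/testis gene, HOXC8, a homeobox gene, and ATP9A, a membrane lipid flippase, differed by 7.31-fold, 5.72-fold, at least 5.07-fold and at least 6.54-fold and were not called. The chemokine genes CCL3 and CCL3L3, at least 5.76-fold and at least 7.18-fold, are near-identical copies, and their probes may read each other's transcripts.

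**Figure D2:**
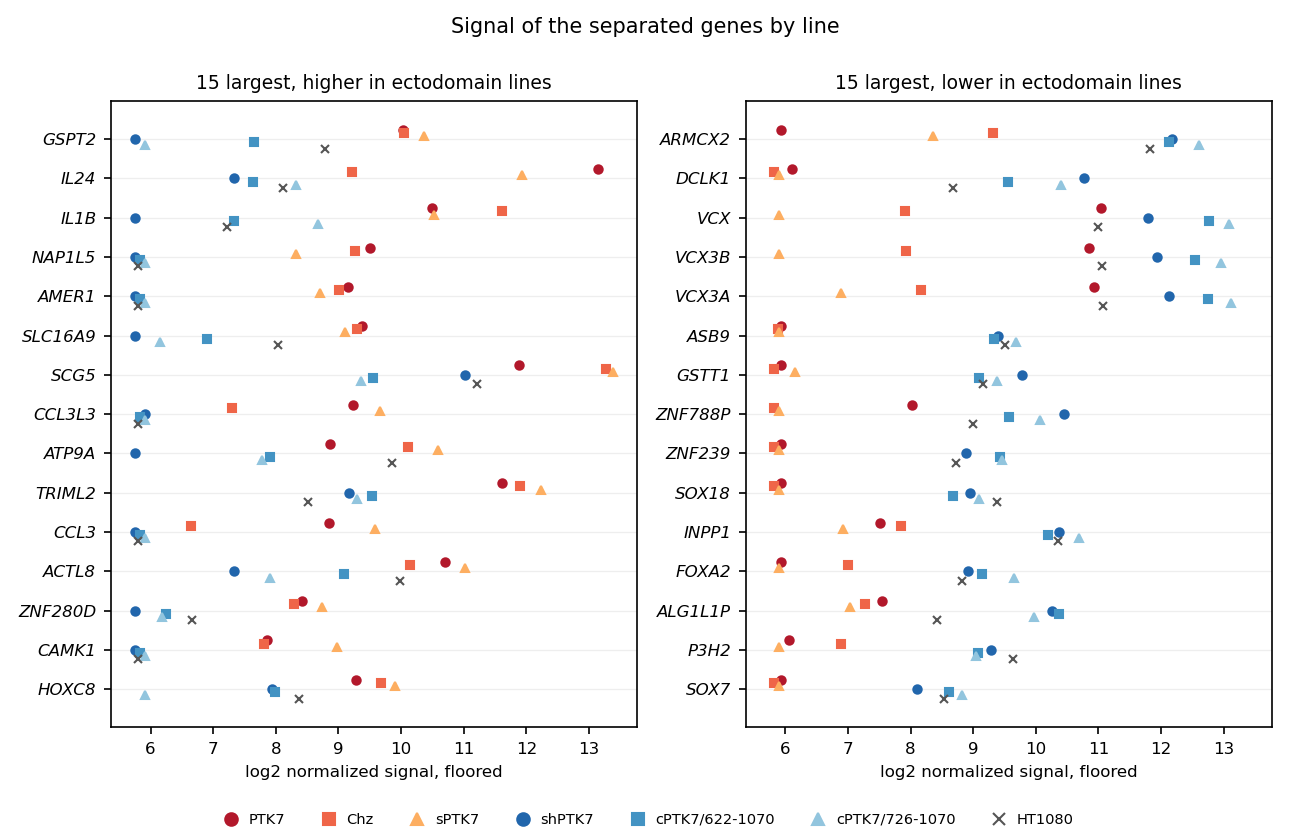
Floored log2 normalized signal of the 15 separated genes with the largest mean difference in each direction, one point per line. Red, orange and yellow symbols are PTK7, Chz and sPTK7 cells, blue symbols the lines without ectodomain construct, and crosses HT1080 cells, which reach 9.39 for SOX18 and stay undetected for AMER1.

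Among the genes that fell, several were undetected in all ectodomain lines and detected in HT1080 cells. SOX18 and SOX7, transcription factors of the SoxF group known from endothelium, were undetected in PTK7, Chz and sPTK7 cells. SOX18 stood at 8.95, 8.68 and 9.10 in the shPTK7, cPTK7/622-1070 and cPTK7/726-1070 lines and at 9.39 in HT1080 cells. It had the lowest adjusted p of all genes (at least 8.16-fold lower, limma adjusted p = 0.000373), which rests on ectodomain signals below detection. SOX7 stood at 8.10, 8.62 and 8.82 in the same lines without ectodomain and at 8.54 in HT1080 cells (at least 6.20-fold lower, limma adjusted p = 0.00228). These genes sit on different chromosomes, 20 and 8, and both probes of SOX7 were separated. SOX4, of another SOX group, was separated too, with 7.86, 8.07 and 6.17 in PTK7, Chz and sPTK7 cells and 8.82, 8.26 and 8.14 in the shPTK7, cPTK7/622-1070 and cPTK7/726-1070 lines, but not called (limma adjusted p = 0.64). Of 7 SOX genes considered, these 3 were separated lower, beside 7.27% of all genes, a family chosen after its values were seen.

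ASB9, an adaptor of ubiquitin ligases on chromosome X, was undetected in PTK7 and sPTK7 cells and stood at 5.89 in Chz cells, against 9.39, 9.34 and 9.68 in the shPTK7, cPTK7/622-1070 and cPTK7/726-1070 lines and 9.51 in HT1080 cells. The gap of 3.41 was wider than the range within either side (at least 11.9-fold lower, limma adjusted p = 0.00113). ZNF239, a zinc finger gene, was undetected in all 3 ectodomain lines, against 8.89, 9.44 and 9.45 in the shPTK7, cPTK7/622-1070 and cPTK7/726-1070 lines (at least 10.4-fold lower, limma adjusted p = 0.00113). GSTT1, a glutathione transferase, was detected among the ectodomain lines in sPTK7 cells only, at 6.15, and stood at 9.79, 9.09 and 9.38 in the shPTK7, cPTK7/622-1070 and cPTK7/726-1070 lines (at least 10.96-fold lower, limma adjusted p = 0.00267). HT1080 cells, at 8.73 for ZNF239 and 9.16 for GSTT1, were near or within the lines without ectodomain. INPP1, an inositol phosphate phosphatase, kept a measurable signal of 7.51, 7.84 and 6.92 in PTK7, Chz and sPTK7 cells, against 10.38, 10.19 and 10.69 in the shPTK7, cPTK7/622-1070 and cPTK7/726-1070 lines (7.96-fold lower, limma adjusted p = 0.00448).

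DCLK1, a microtubule-associated kinase, showed the largest difference among the called genes. It stood at 6.10 in PTK7 cells and was undetected in Chz and sPTK7 cells, against 10.77, 9.55 and 10.40 in the shPTK7, cPTK7/622-1070 and cPTK7/726-1070 lines, with both of its probes separated (at least 19.8-fold lower, limma adjusted p = 0.00156). HT1080 cells lay between at 8.68, so for DCLK1 the sides departed from the control in opposite directions. The long noncoding RNA UCA1 followed the same course, with 9.06, 9.30 and 8.59 in PTK7, Chz and sPTK7 cells, against 11.31, 11.50 and 11.09 in the shPTK7, cPTK7/622-1070 and cPTK7/726-1070 lines and 10.36 in HT1080 cells (4.98-fold lower, limma adjusted p = 0.00874). TSSC2, at 5.89-fold, and the pseudogene ALG1L1P, at 7.54-fold, also fell with HT1080 cells in between (limma adjusted p = 0.0129 and 0.00156), but only 1 of the 2 ALG1L1P probes considered was separated. P3H2, a collagen prolyl hydroxylase, fell at least 7.25-fold (limma adjusted p = 0.018). The remaining called genes in this direction were NOVA1, EMC10, DLX5, PDE4B, KAZN, SH3PXD2B, PDE7B, LIPG and NXF2.

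The largest lower difference of all belonged to ARMCX2, an armadillo repeat gene on chromosome X, which was undetected in PTK7 cells and stood at 9.31 in Chz and 8.35 in sPTK7 cells, against 12.17, 12.12 and 12.60 in the shPTK7, cPTK7/622-1070 and cPTK7/726-1070 lines (at least 21.6-fold, limma adjusted p = 0.0934). FOXA2, a transcription factor of endoderm, differed by at least 7.77-fold (limma adjusted p = 0.0529) and ZNF788P, a pseudogene, by at least 10.9-fold (limma adjusted p = 0.107). VCX, VCX3A and VCX3B, germ cell genes of chromosome X, are near-identical copies whose probes cannot be told apart with certainty, and they gave similar values on most arrays. For VCX3A the brightest probe gave 10.93, 8.16 and 6.89 in PTK7, Chz and sPTK7 cells, against 12.13, 12.75 and 13.12 in the shPTK7, cPTK7/622-1070 and cPTK7/726-1070 lines (16.1-fold lower, limma adjusted p = 0.184). Only 1 of the 2 VCX3A probes considered was separated.

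HT1080 cells were not part of either side, and their signal was set beside each separated gene. Of the 94 higher genes with at least 2-fold, HT1080 cells lay within or beyond the ectodomain lines in 13 (13.8%), between the sides in 38 (40.4%), and within or beyond the lines without ectodomain in 43 (45.7%). For the 100 lower genes these numbers were 12, 39 and 49. Over all 685 higher genes, most of them under 2-fold, HT1080 cells went with the ectodomain lines in 266 (38.8%) and with the lines without in 261 (38.1%). The difference between these shares was not tested. A transcript was detected in all ectodomain lines and in no line without in 21 genes, of which 5 were also detected in HT1080 cells. The reverse, detection in all lines without ectodomain and in no line with it, held for 44 genes, of which 28 were detected in HT1080 cells.

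The separated genes were unevenly spread over the chromosomes, as the gene order of RefSeq (GRCh38.p14) shows. On chromosome 15, 75 of 352 genes considered were higher (21.3%) and 5 lower (1.42%), and on chromosome 20, 60 of 300 were higher (20%) and 16 lower (5.33%), against 6.07% and 7.27% over all genes. Chromosome 6 ran the other way, with 19 of 592 higher (3.21%) and 74 lower (12.5%). Chromosome 18 had 15 higher and 2 lower genes of 157, and chromosome 7 had 42 higher and 11 lower of 524. Chromosomes 15 and 20 held 5.78% of the genes considered and 19.7% of the separated higher genes. Without these chromosomes, 550 higher genes (5.17%) and 800 lower genes (7.52%) of 10638 remained, and limma's 36 calls became 13 higher and 19 lower.

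**Figure D3:**
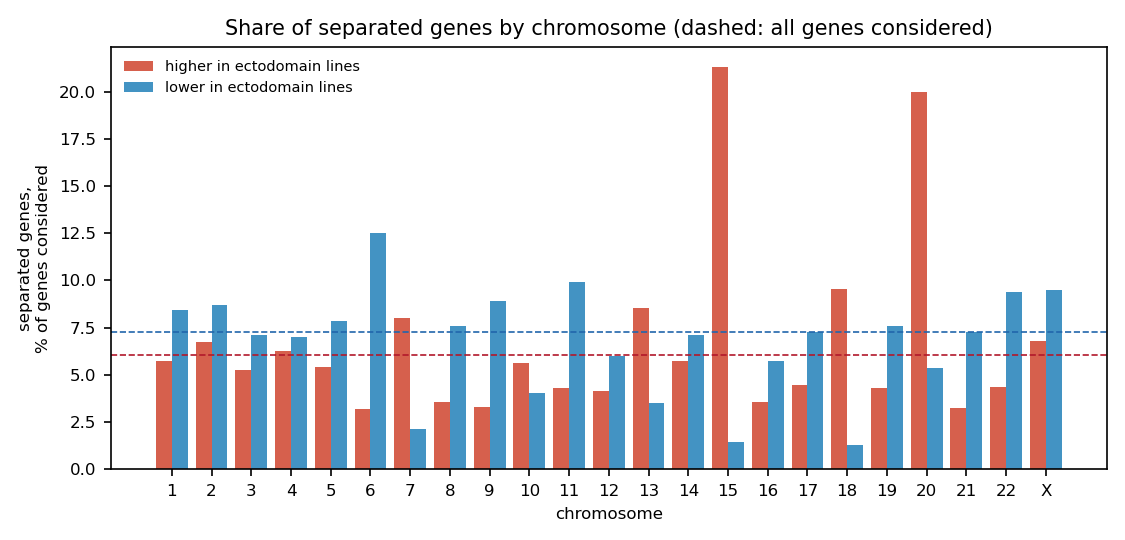
Percent of the genes considered on each chromosome that were separated with the ectodomain lines higher (red bars) or lower (blue bars), with dashed lines at the shares over all genes, 6.07% and 7.27%. Chromosomes 15 and 20 stand out with 21.3% and 20% of their genes higher.

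On chromosome 20 the higher genes lay together at the start of the gene order. Of the first 81 genes detected on all 6 arrays, ZCCHC3 to PYGB, 48 were higher and 2 lower, whereas of the other 187 genes 9 were higher and 10 lower. Taken relative to each gene's mean over the 6 arrays, the median log2 level of these 81 genes was 0.06 in PTK7, 0.36 in Chz and 0.36 in sPTK7 cells, against -0.33 in shPTK7, -0.16 in cPTK7/622-1070 and -0.32 in cPTK7/726-1070 cells. HT1080 cells stood at 0.34, with Chz and sPTK7 cells, and in 41 of the 48 higher genes they lay within or beyond the ectodomain lines. The boundary was chosen after the values were seen. IDH3B, a subunit of a mitochondrial dehydrogenase, had 12.34, 12.34 and 12.46 in PTK7, Chz and sPTK7 cells, against 11.88, 11.87 and 11.60 in the shPTK7, cPTK7/622-1070 and cPTK7/726-1070 lines. CENPB, a centromere protein, had 12.51, 12.78 and 13.09 in PTK7, Chz and sPTK7 cells, against 12.10, 12.20 and 12.10 in the shPTK7, cPTK7/622-1070 and cPTK7/726-1070 lines. PCNA, TRIB3, CDC25B, MAVS and SIRPA were further members of it.

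Chromosome 15 differed along most of its length and by less. Over its 300 genes detected on all 6 arrays the median relative level was 0.02 in PTK7, 0.18 in Chz and 0.13 in sPTK7 cells, against -0.13 in shPTK7, -0.05 in cPTK7/622-1070 and -0.17 in cPTK7/726-1070 cells, and 0.15 in HT1080 cells. PTK7 cells did not keep to the ectodomain side throughout: with the gene order cut into 10 equal bins, their median ran from -0.25 to -0.06 in the first 4 bins, and in the last 6 from 0.03 to 0.29. On chromosome 6 the pattern came from a pair of lines. In the last 6 of 10 bins of its gene order, a cut chosen after the values were seen, 1 of 302 genes was higher and 48 were lower. Of all genes detected on all 6 arrays, 6.15% were higher and 6.95% lower. The median relative level in these 6 bins was -0.31 in PTK7 cells and 0.31 in shPTK7 cells, while the other lines, HT1080 cells included, stayed between -0.04 and 0.05. On chromosomes 18 and 7 the medians of the lines did not divide by side. For chromosome 18, PTK7 cells were lowest at -0.29, whereas Chz and sPTK7 cells stood at 0.25 and the lines without ectodomain between -0.10 and -0.03. For chromosome 7, PTK7 cells stood at 0.18 and cPTK7/726-1070 cells at -0.21, with all other lines between -0.04 and 0.06. The arrays measured RNA only. DNA copy number was not measured, and its part in these stretches was not tested.

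**Figure D4:**
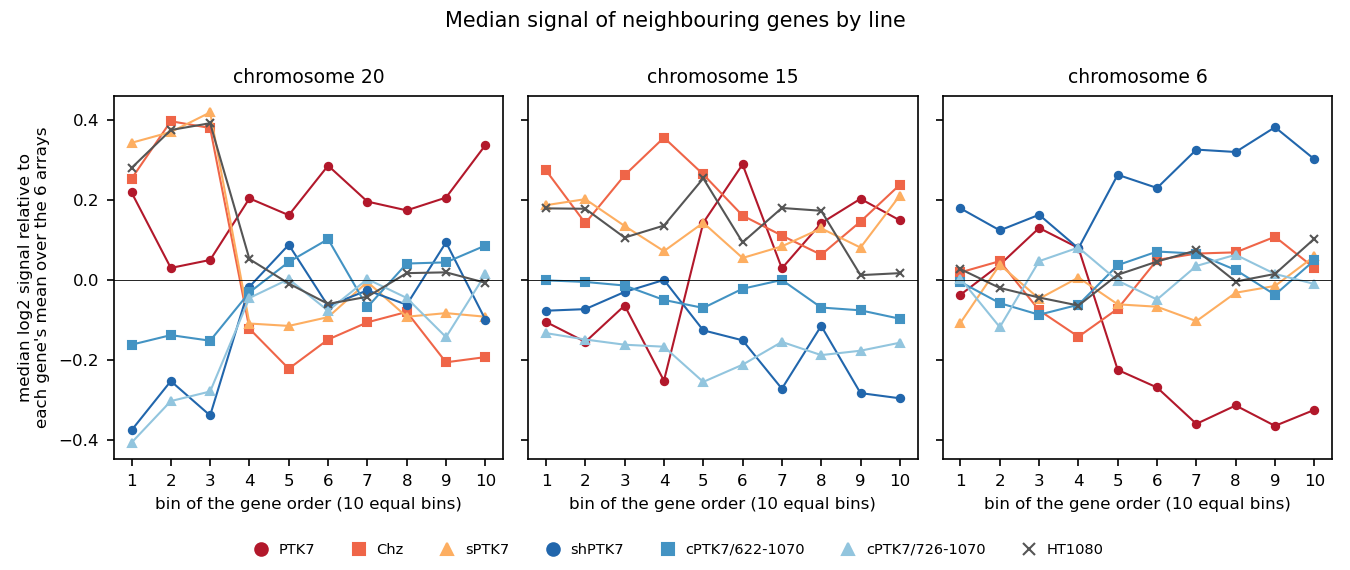
Median log2 signal relative to each gene's mean over the 6 arrays (vertical axis), in 10 equal bins of the gene order of chromosomes 20, 15 and 6 (horizontal axis), one line per cell line. On chromosome 20 the ectodomain lines and HT1080 cells lie above 0 and the lines without ectodomain below it in the first 3 bins, and in the last 7 PTK7 cells lie above the rest; on chromosome 6 PTK7 and shPTK7 cells part from the rest.

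Genes of the inflammatory response were then read from gene lists. NF-kappa B is a family of transcription factors held inactive by inhibitor proteins, and it induces chemokines, cytokines and its own subunits and inhibitor. Of 24 chemokines and NF-kappa B target genes, 12 were considered, 5 were higher (CCL3, NFKBIA, NFKB1, NFKB2 and RELB) and 0 lower, beside 6.07% and 7.27% of all genes. The median difference over the list was 0.32, and over all genes -0.02. RELB, a subunit of the noncanonical pathway, had signals of 7.67, 7.68 and 7.60 in PTK7, Chz and sPTK7 cells, against 6.26, 5.87 and 6.35 in the shPTK7, cPTK7/622-1070 and cPTK7/726-1070 lines. Its partner NFKB2 had 8.31, 8.05 and 8.02 in PTK7, Chz and sPTK7 cells, against 6.88, 6.63 and 6.64 in the shPTK7, cPTK7/622-1070 and cPTK7/726-1070 lines. Both rose, RELB 2.81-fold and NFKB2 2.66-fold, with HT1080 cells between the sides at 6.82 and 7.48 (limma adjusted p = 0.025 for each). NFKBIA, the inhibitor, and NFKB1, the canonical subunit, were separated by smaller differences of 0.75 and 0.33 and not called (limma adjusted p = 0.297 and 0.708). For both, HT1080 cells stood with the ectodomain lines, at 11.71 and 12.75, whereas for CCL3 they went with the lines without ectodomain.

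The RefSeq promoters of the separated genes, 250 bases before to 50 after the start (GRCh38.p14), were searched on both strands for the kappa B letters GGGANTTTCC, with A or C at N. They occurred in 6 of 547 promoters of higher genes (1.1%), in 2 of 678 of lower genes (0.295%) and in 32 of 9079 promoters of all genes considered (0.352%). The higher genes were NFKB1, NFKBIA, TAP1, OPTN, IL27RA and IFNGR2, and the lower genes FCHSD2 and PLLP. Promoters of NFKB2, IL1B, IL24, CCL3 and CCL3L3 did not hold these letters, and the table had no entry for RELB. Shown here are 4 of them, for the subunit, the inhibitor, a peptide transporter and OPTN, an adaptor protein and the only one past 2-fold. The kappa B letters or their reverse complement are in capitals, and the sequences run along the plus strand for NFKB1 (chr4:102501109-102501408) and OPTN (chr10:13099832-13100131) and along the minus strand for NFKBIA (chr14:35404700-35404999) and TAP1 (chr6:32853655-32853954).
NFKB1: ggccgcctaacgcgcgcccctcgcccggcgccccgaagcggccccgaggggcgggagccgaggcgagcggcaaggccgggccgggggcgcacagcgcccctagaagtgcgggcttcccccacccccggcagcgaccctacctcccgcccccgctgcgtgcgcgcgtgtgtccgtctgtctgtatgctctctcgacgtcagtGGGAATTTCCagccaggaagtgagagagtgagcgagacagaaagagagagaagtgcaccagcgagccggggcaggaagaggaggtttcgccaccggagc
NFKBIA: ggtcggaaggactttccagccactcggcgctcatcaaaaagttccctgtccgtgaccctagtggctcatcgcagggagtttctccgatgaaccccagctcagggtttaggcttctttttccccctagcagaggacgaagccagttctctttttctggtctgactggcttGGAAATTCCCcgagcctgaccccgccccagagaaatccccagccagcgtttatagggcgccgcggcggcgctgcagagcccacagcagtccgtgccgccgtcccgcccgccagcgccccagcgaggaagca
TAP1: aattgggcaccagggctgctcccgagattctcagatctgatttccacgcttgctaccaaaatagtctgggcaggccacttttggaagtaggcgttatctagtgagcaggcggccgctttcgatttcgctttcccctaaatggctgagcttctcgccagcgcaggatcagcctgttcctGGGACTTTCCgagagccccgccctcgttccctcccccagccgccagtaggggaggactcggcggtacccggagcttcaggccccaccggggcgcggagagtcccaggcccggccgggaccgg
OPTN: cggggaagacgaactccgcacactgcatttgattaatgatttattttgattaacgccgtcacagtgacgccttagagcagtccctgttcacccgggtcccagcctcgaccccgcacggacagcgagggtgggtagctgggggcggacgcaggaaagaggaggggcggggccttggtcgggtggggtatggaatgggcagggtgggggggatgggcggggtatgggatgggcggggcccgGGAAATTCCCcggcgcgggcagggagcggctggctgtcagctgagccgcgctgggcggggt
OPTN had signals of 8.29, 8.91 and 8.89 in PTK7, Chz and sPTK7 cells, against 7.97, 7.77 and 7.13 in the shPTK7, cPTK7/622-1070 and cPTK7/726-1070 lines (2.10-fold, limma adjusted p = 0.276). The cAMP response element TGACGTCA was in 2.38% of promoters of higher genes, 4.42% of lower genes and 3.45% of all, and past 2-fold in 1 of 72 higher and 5 of 72 lower genes. Its core TGACG, which the full element contains, was in 35.6%, 36.3% and 35.1%, the AP-1 site TGAGTCA in 3.47%, 2.51% and 3.11%, and the E-box CACCTG in 18.1%, 15.8% and 17.5%. A match of letters is a description of the promoter and not a bound site.

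Interferon-stimulated genes are switched on through STAT and IRF factors. Of 29 listed genes 22 were considered, 6 were higher (IFI6, IFIT3, IFIH1, IRF1, ISG15 and PSMB9) and 0 lower, beside 6.07% and 7.27% of all genes. A positive difference was seen in 19, and the median was 0.56. None was called by limma, and 5 of the 22 had an unadjusted p under 0.05. IFIT3, which limits translation of foreign RNA, had 7.68, 7.70 and 7.51 in PTK7, Chz and sPTK7 cells, against 6.94, 7.03 and 6.99 in the shPTK7, cPTK7/622-1070 and cPTK7/726-1070 lines and 6.68 in HT1080 cells. The values were tight within each side and the difference was 1.56-fold (limma adjusted p = 0.276). IFIH1, a sensor of double-stranded RNA, and IFI6 differed by at least 1.76-fold and 1.54-fold, again with HT1080 cells on the side without ectodomain. HT1080 cells went with the ectodomain lines for IRF1 and PSMB9, at 10.13 and 8.06, and lay between the sides for ISG15. PSMB9, a subunit of the immunoproteasome, differed by 2.17-fold on the means, but its lowest ectodomain value, 7.42 in PTK7 cells, barely cleared the 7.41 of cPTK7/622-1070 cells, and the low value of 5.80 in shPTK7 cells carried the mean.

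Genes that load peptides onto HLA class I molecules were counted after their values were seen. Of TAP1, TAP2, TAPBP, PSMB8, PSMB9, PSMB10, PSME1, PSME2 and B2M, 4 of 9 were higher and 0 lower, beside 6.07% and 7.27% of all genes, with a median difference of 0.42. TAP1, the peptide transporter whose promoter is printed above, had 10.46, 10.53 and 10.73 in PTK7, Chz and sPTK7 cells, against 10.32, 9.87 and 10.05 in the shPTK7, cPTK7/622-1070 and cPTK7/726-1070 lines. HLA-G, a class I molecule of restricted expression, had 6.91, 7.99 and 7.53 in PTK7, Chz and sPTK7 cells, against 6.73, 6.38 and 6.05 in the shPTK7, cPTK7/622-1070 and cPTK7/726-1070 lines. Neither was called (limma adjusted p = 0.555 for TAP1 and 0.324 for HLA-G), and the class I genes share sequence, so their probes may not tell them apart. Of 8 genes of the interleukin 1 axis and the IL10 family considered, IL1B, IL24 and IL1RAP were higher and 0 lower, where 6.07% and 7.27% of all genes were, and the median of the list was -0.05.

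Immediate early genes are induced within minutes by growth factor and stress signals, and CREB is one of the factors that bind their promoters. Of 12 CREB target genes considered, FOSB, EGR1 and JUNB were higher and PDE4B was lower, where 6.07% and 7.27% of all genes were. EGR1, a zinc finger transcription factor, had 9.29, 8.84 and 8.52 in PTK7, Chz and sPTK7 cells, against 7.67, 6.96 and 7.71 in the shPTK7, cPTK7/622-1070 and cPTK7/726-1070 lines and 6.73 in HT1080 cells (2.71-fold, limma adjusted p = 0.132). PDE4B, a phosphodiesterase that breaks down cAMP, had 6.20, 6.31 and 6.21 in PTK7, Chz and sPTK7 cells, against 8.90, 7.82 and 8.49 in the shPTK7, cPTK7/622-1070 and cPTK7/726-1070 lines. It fell 4.48-fold, with the 3 ectodomain lines within 0.11 of each other (limma adjusted p = 0.0242). PDE7B, another cAMP phosphodiesterase, was detected among the ectodomain lines in sPTK7 cells only, at 6.20, against 8.44, 7.80 and 8.72 in the shPTK7, cPTK7/622-1070 and cPTK7/726-1070 lines (limma adjusted p = 0.0337). Among 13 genes named PDE with the values in view, 2 were higher and 4 lower, beside 6.07% and 7.27% of all genes.

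Of 20 genes that feed back on or report ERK signaling, EGR1 and SPRY2 were higher and DUSP4, a phosphatase of MAP kinases, was lower, counts near the 6.07% and 7.27% of all genes. DUSP4 was undetected in PTK7 cells and stood at 6.64 in Chz and 6.28 in sPTK7 cells, against 7.29, 7.56 and 8.38 in the shPTK7, cPTK7/622-1070 and cPTK7/726-1070 lines (at least 2.75-fold, limma adjusted p = 0.29).

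Wnt target genes had a median difference below 0. AXIN2, a feedback inhibitor that beta-catenin and TCF factors induce in most tissues, was undetected in PTK7 cells and stood at 5.90 in Chz and 6.84 in sPTK7 cells, against 7.63, 7.40 and 7.42 in the shPTK7, cPTK7/622-1070 and cPTK7/726-1070 lines and 7.34 in HT1080 cells. The difference was at least 2.39-fold and was not called (limma adjusted p = 0.216). Of 8 Wnt target genes considered, AXIN2, SOX4 and NOTUM were lower and 0 higher, where 7.27% of all genes were lower and 6.07% higher, 1 had a positive difference, and the median was -0.22. NOTUM lay near the floor, undetected in the ectodomain lines and at 6.06, 6.17 and 6.10 in the lines without. SOX4 was separated by a gap of 0.07 only. Of 26 considered genes for planar cell polarity and Wnt receptors, WNT5A, a ligand of the noncanonical pathway, was higher and FZD3, a receptor, lower, which is below the 6.07% and 7.27% of all genes. WNT5A was brightest in Chz cells, at 9.34, with 6.42 in PTK7 and 7.17 in sPTK7 cells, against 6.28 in shPTK7, 5.96 in cPTK7/622-1070 and no detection in cPTK7/726-1070 cells. Beside them, JUP, which encodes plakoglobin of cell junctions, was separated lower by at least 2.58-fold (limma adjusted p = 0.129), the only separated gene of 13 cadherins, catenins and junction genes considered.

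Of 16 genes of lipid mediator and G protein signaling considered, SPHK1 and RGS3 were higher and LPAR3, F2R, FPR1, PLPP3, RGS7 and RGS17 were lower, beside 6.07% and 7.27% over all genes. A positive difference was seen in 7 of the 16, the median was -0.37, and limma called 0 of them, with 7 at an unadjusted p under 0.05. PLPP3, a phosphatase that inactivates lysophosphatidic acid at the cell surface, had 7.90, 8.79 and 9.43 in PTK7, Chz and sPTK7 cells, against 11.01, 10.81 and 11.78 in the shPTK7, cPTK7/622-1070 and cPTK7/726-1070 lines and 9.55 in HT1080 cells (5.62-fold lower, limma adjusted p = 0.0727). FPR1, a chemotactic receptor, had 7.13, 6.85 and 6.05 in PTK7, Chz and sPTK7 cells, against 10.00, 8.61 and 8.98 in the shPTK7, cPTK7/622-1070 and cPTK7/726-1070 lines (5.73-fold lower, limma adjusted p = 0.0679). Both genes parted the sides by over 2-fold at the closest lines, though neither reached the threshold. F2R, the thrombin receptor, was separated by only 0.13 (limma adjusted p = 0.922).

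Matrix and growth factor genes showed single members rather than a shift of the list. Of 29 matrix protein genes considered, EFEMP2 and LAMB2 were higher and TGFBI and THBS2 lower, close to the 6.07% and 7.27% over all genes. TGFBI, a secreted protein that TGF-beta induces, had 12.79, 12.21 and 11.50 in PTK7, Chz and sPTK7 cells, against 14.75, 14.35 and 13.19 in the shPTK7, cPTK7/622-1070 and cPTK7/726-1070 lines (3.81-fold lower, limma adjusted p = 0.219). TGFBR3, a co-receptor, and BMP6, a ligand, were lower by 2.74-fold and 2.76-fold, and in both PTK7 cells carried much of the difference, at 6.84 for each, while Chz and sPTK7 cells lay between 8.49 and 8.86. Of 13 integrin genes, ITGA1 and ITGA2 were lower, beside 7.27% of all genes, ITGA2 by 1.99-fold, just short of 2-fold. None of 24 pericellular proteases and inhibitors was separated.

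**Figure D5:**
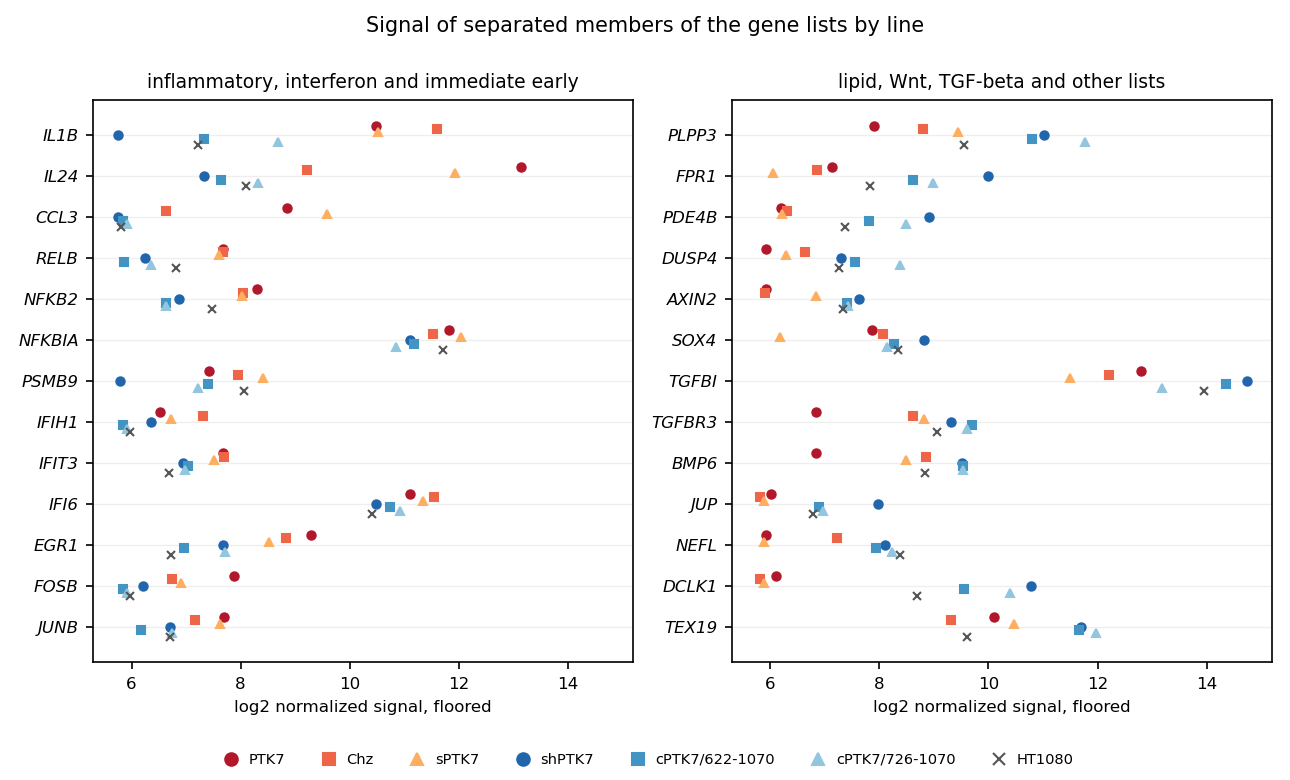
Floored log2 normalized signal of separated members of the gene lists, one point per line, with symbols as for the largest genes. The left panel holds genes higher in the ectodomain lines, such as RELB at 7.60 to 7.68, and the right panel genes lower in them, such as PDE4B at 6.20 to 6.31.

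Cell cycle genes were split. Of 25 considered, MCM3, MCM4, MCM6, CDC45 and E2F1 were lower and PCNA and CCNB2 higher, beside 7.27% and 6.07% of all genes, with a median of -0.19. The lower genes encode the replicative helicase, its cofactor and a factor that induces them. CDC45 had 11.80, 12.20 and 12.17 in PTK7, Chz and sPTK7 cells, against 12.84, 12.63 and 12.31 in the shPTK7, cPTK7/622-1070 and cPTK7/726-1070 lines (1.45-fold, limma adjusted p = 0.57). PCNA, the sliding clamp of DNA polymerases, lies in the stretch of chromosome 20 described above, and CCNB2 lies on chromosome 15. Of 13 YAP and TEAD target genes, CCN1, AJUBA, LATS2 and FJX1 were higher by 0.43 to 0.80 and 0 lower, beside 6.07% and 7.27% of all genes. HT1080 cells went with the ectodomain lines for CCN1, AJUBA and LATS2.

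Of 30 cancer/testis antigen genes considered, SSX1 and SSX2 were higher and VCX, VCX3A, VCX3B, TEX19, PRAME and NXF2 lower. The count of higher genes is near the 6.07% of all genes, and 3 of the lower genes, beside 7.27% of all, are the VCX copies. The count depends on the members listed. Outside the list, 3 of 12 GAGE genes considered, also cancer/testis antigens, were higher (GAGE12D, GAGE12F and GAGE7) and 0 lower. This was counted with the values in view, beside 6.07% and 7.27% of all genes. The median difference of the 12 was -0.04, so the family as a whole did not shift upward. ACTL8, higher as well, is not on the list. TEX19, a germ cell gene, had 10.11, 9.31 and 10.47 in PTK7, Chz and sPTK7 cells, against 11.70, 11.66 and 11.96 in the shPTK7, cPTK7/622-1070 and cPTK7/726-1070 lines, and HT1080 cells, at 9.60, went with the ectodomain lines (3.52-fold lower, limma adjusted p = 0.0727). Among neuronal-type genes, NEFL, the light neurofilament, was lower by at least 3.35-fold beside DCLK1, and of 24 considered 2 were higher and 4 lower, beside 6.07% and 7.27% of all genes. Histone, p53, hypoxia, cholesterol, ATF4, contractile, BEX and TCEAL, sheddase and reference gene lists, of 9 to 20 genes considered, each had 0 to 3 separated genes in either direction, beside 6.07% and 7.27% of all genes. Their median differences ran from -0.16 for cholesterol synthesis to 0.40 for histones, with 0.315 for contractile genes and 0.30 for p53 targets. A positive difference was seen in 11 of 12 histones, 14 of 17 contractile genes and 14 of 19 p53 targets, but in 4 of 14 cholesterol genes. Among 10 reference genes TBP, a gene of chromosome 6, was separated by -0.45. A positive difference was seen in 1 of the 10, and their median was -0.13, against -0.02 over all genes.

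Near the 2-fold threshold the calls turned on small margins. Just inside stood HSPA1A at 2.01-fold and C1orf54 at no less than 2.003-fold higher and PALMD at no less than 2.03-fold and CFAP58 at 2.05-fold lower, and just outside stood PIK3IP1 at 1.998-fold and SYNC at no less than 1.99-fold higher and ITGA2 at 1.99-fold and PXDN at no less than 1.99-fold lower. PALMD was separated by a gap of 0.03 only, whereas CFAP58 left a gap of 0.52. In both, 1 of 2 probes considered was separated.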

How the data were processed

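Gene expression was measured on 7 Illumina arrays of 1 chip, 1 array per cell line. The deposited non-normalized intensity of each of 47230 probes comes from the authors' BeadArray Reader scan; each array carries a detection p-value, deposited by the authors, against about 770 negative controls. The authors' normalized intensity table, made per the methods with BeadArray Reader and GeneSpring GX by an algorithm not given in the sources used here, served as an alternative.

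Intensities were background-corrected and quantile normalized over 7 arrays with neqc in limma 3.58.1 (R 4.3.3, offset 16), where the offset shrinks folds of dim probes, and log2 transformed. Of the probes, 30112 had 1 gene in the platform annotation; symbols were updated through gene IDs, and each gene was represented by its brightest probe. Raising dim signals to an array's detection floor makes folds against undetected lines lower bounds. The side contrast was fitted with lmFit and eBayes on unfloored signals, leaving HT1080 cells out, and the script was tested on simulated data. Named genes were PTK7, the blotted genes, the 15 separated genes with the largest difference and the 10 with the lowest adjusted p per direction, up to 4 separated members per gene list (30 lists) and the 2 genes per direction on each side of the 2-fold cutoff; others are named where a count was spelled out, and these were chosen after their values were seen. The lines, members and lists were chosen with earlier results of these data known. Background correction, scaling, detection filter, floor, probe choice, samples and test were varied.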

Additional observations from a re-analysis of the deposited data

How the results depend on the processing

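The arrays are single per line, so spread between cultures was not measured, and dim genes are bounded by the detection floor. Without background correction, 35 higher and 44 lower genes passed the 2-fold rule, against 94 and 100. With the authors' normalized values 35 and 45 did so. The separated counts without background correction, 685 and 821, were unchanged by construction, since the order of signals on each array is the same. With the authors' values they were 685 and 825. Of the 36 limma genes, 22 were still called without background correction, 23 with the authors' values, 11 with detection on all 6 arrays and 28 with HT1080 cells added. Requiring detection on all 6 arrays left 60 and 45 genes past 2-fold and 5 higher and 6 lower limma calls, by construction fewer since undetected lines drop out. When every probe of a gene had to be separated, 441 higher genes remained and 65 lower genes past 2-fold. With HT1080 cells added to the lines without ectodomain, 419 higher genes were separated. The methods' t-test (Welch) at an unadjusted p under 0.05 and at least 2-fold called 65 higher and 56 lower genes, and 0 and 0 after Benjamini-Hochberg adjustment, where limma called 16 and 20 (459 and 466 at an unadjusted p under 0.05).

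Leaving out 1 line made separation easier by construction, with 1004 to 1486 higher and 1236 to 1760 lower genes, the most without PTK7 cells. Past 2-fold these were 99 to 182 higher and 99 to 148 lower. Limma then called 6 to 22 genes higher and 9 to 28 lower, fewest without shPTK7 cells (6 and 9), with 6 and 11 without cPTK7/726-1070 cells, 9 and 9 without cPTK7/622-1070 cells and 7 and 13 without sPTK7 cells. Of the 30 genes with the largest differences, all stayed separated under 75th percentile scaling, with the authors' table and at a detection p under 0.01. With HT1080 cells added 28 did, and ATP9A and VCX were lost. All 30 also stayed separated without background correction and without a floor, but by construction. The former keeps the order of signals on each array before quantile normalization, and the latter only lowers undetected signals of the dimmer side. Neither is therefore a check of these genes. No named gene reversed its direction under these alternatives. Leaving out chromosomes 15 and 20 was chosen after seeing the data. No paired analysis was possible because each line has 1 array.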
